A study of Mus musculus with 4 samples.

Results

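Vasopressin and oxytocin are followed here through 4 genes: Avp and Oxt, which encode the hormone precursors, and Avpr1a and Oxtr, which encode a vasopressin and the oxytocin receptor. They were chosen by name out of 32285 genes in the count tables. Their UMIs (unique molecular identifiers, each standing for 1 captured RNA molecule) were summed per library over the authors' clusters and sub-clusters, and Avp and Oxt were also read nucleus by nucleus in the large neuronal cluster, Neurons_1.

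The data are single-nucleus RNA sequencing of snap-frozen hypothalamus from adult male mice on the C57/BL6NCr background. There were 2 genotypes, wild type (WT) and TRα1+m, which is heterozygous for the R384C mutation of the thyroid hormone receptor α1. Each library pooled nuclei of 3 mice of a genotype, and 2 independent repeats each gave a WT and a TRα1+m library, so n = 2 per genotype and single mice cannot be told apart. The 4 libraries held 11976 to 16435 annotated nuclei, 47260127 to 59112785 UMIs and median depths of 2904 to 4018 UMIs per nucleus, and pairs of libraries shared 44 to 64 barcodes. Levels are given in CPM, a gene's UMIs scaled to all UMIs of the cell group. Groups with at least 10 nuclei in every library were used, which left 18 cell groups.

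Vasopressin and oxytocin are peptide hormones of 9 amino acids that are cut from larger precursors. Magnocellular neurons of the paraventricular and supraoptic nuclei send them to the posterior pituitary, where vasopressin governs water retention and oxytocin governs milk ejection and uterine contraction. Vasopressin is also made by neurons of the suprachiasmatic nucleus, the circadian pacemaker, which do not project to the pituitary. Avpr1a and Oxtr are G protein-coupled receptors that signal through Gq and calcium.

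The pair of hormone genes lie tail to tail on mouse chromosome 2. In GENCODE vM21 (GRCm38) Oxt spans chr2:130576173-130577054 on the plus strand and Avp spans chr2:130580620-130582554 on the minus strand, with 3565 bases between their 3′ ends. Avpr1a lies at chr10:122448499-122453452 (plus strand) and Oxtr at chr6:112473683-112489943 (minus strand). The stretches that encode the hormones themselves are shown because they are the part that tells Avp and Oxt apart in function. Both lie in exon 1 of 3, within the coding sequence, at chr2:130582446-130582472 (minus strand) for Avp and chr2:130576267-130576293 (plus strand) for Oxt. Capitals mark the bases that differ.
Avp: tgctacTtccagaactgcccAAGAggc
Oxt: tgctacAtccagaactgcccCCTGggc
They differed at 5 of 27 bases. Counted from the first base, with Avp first, the differences were T7A, A21C, A22C, G23T and A24G. They changed the amino acid at 2 of 9 positions, the third and the eighth.

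Because the mutation is in a thyroid hormone receptor, the 250 bases before the RefSeq start site (GRCm38.p6) were searched for AGGTCA, the half-site that nuclear receptors bind, and its reverse, TGACCT. Oxt held 2 matches, an AGGTCA that starts 185 bases before the start site (−185) and a TGACCT at −166. Avp and Avpr1a held none, and Oxtr held 1, at −98. Of the 32851 promoters in the reference table, 14% held at least 1 match and 1.36% held 2 or more. These are matches of letters and not shown to be binding sites. The promoters of the hormone genes are given with matches in capitals, Oxt at chr2:130575919-130576168 (plus strand) and Avp at chr2:130582589-130582838 (minus strand).
Oxt: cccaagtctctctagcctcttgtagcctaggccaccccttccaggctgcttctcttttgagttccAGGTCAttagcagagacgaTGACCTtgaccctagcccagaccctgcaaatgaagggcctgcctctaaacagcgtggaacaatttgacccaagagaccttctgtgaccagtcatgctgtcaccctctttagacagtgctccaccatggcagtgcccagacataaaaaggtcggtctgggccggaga
Avp: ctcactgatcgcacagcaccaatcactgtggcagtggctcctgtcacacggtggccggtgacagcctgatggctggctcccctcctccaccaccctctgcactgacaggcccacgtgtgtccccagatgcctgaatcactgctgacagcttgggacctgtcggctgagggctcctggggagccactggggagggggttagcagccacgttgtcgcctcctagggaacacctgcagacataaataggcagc

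Avp was highest in the sub-cluster that the authors named Oxytocin+, AVP (366 nuclei) and next in their AVasopressin sub-cluster (1182 nuclei), in that order in all 4 libraries. These are descriptions, with no test, since the sub-clusters were built on these same genes. In the Oxytocin+, AVP sub-cluster the Avp level was 5923 CPM in WT repeat 1, 36626 in WT repeat 2, 6964 in TRα1+m repeat 1 and 36207 in TRα1+m repeat 2. Both repeat 1 libraries were low and both repeat 2 libraries were high, so the repeats did not overlap while the genotypes did. In the AVasopressin sub-cluster the Avp level was 1117 and 4653 CPM in the WT libraries and 1240 and 5159 in the TRα1+m libraries, in the order of the repeats. The same split by repeat was seen there.

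Oxt was also highest in the Oxytocin+, AVP sub-cluster in all 4 libraries. Its level there was 6250 CPM in WT repeat 1, 33076 in WT repeat 2, 3787 in TRα1+m repeat 1 and 12740 in TRα1+m repeat 2. Repeat 2 was again above repeat 1 in each genotype, and within each repeat the TRα1+m library was the lower. In the AVasopressin sub-cluster Oxt stood at 391, 56.0, 364 and 21.8 CPM (WT repeats 1 and 2, then TRα1+m repeats 1 and 2), which was rank 10 of the 18 groups. The AVasopressin sub-cluster as a whole thus had raised Avp without raised Oxt. The sub-cluster named for oxytocin had a higher Avp level than the one named for vasopressin.

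Below these groups the order was not stable. The group next in mean Avp level, the sub-cluster named MCH, took ranks 9, 3, 9 and 3 in the WT and TRα1+m libraries, and from there down no group stood above its next neighbour in all 4 libraries except Glutamatergic_3 over Orexin+ at the end of the order. Orexin+ neurons were lowest for Avp in all 4 libraries, at 39.3 to 105 CPM. For Oxt the sub-cluster named MCH came next, at 397, 1823, 710 and 498 CPM, and 1 nucleus held 72.5% of its Oxt UMIs in TRα1+m repeat 1. The level of tanycytes, which followed, also rested on 1 nucleus with 1560 UMIs, which held 81% of the 1927 Oxt UMIs of that group in TRα1+m repeat 1. Without it the level in that library was 369.5 CPM in place of 1932. Oligodendrocytes, a cell type that should lack both hormones, stood at 614, 285, 542 and 152 CPM for Avp and at 737, 185, 513 and 91.5 for Oxt.

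**Figure D1:**
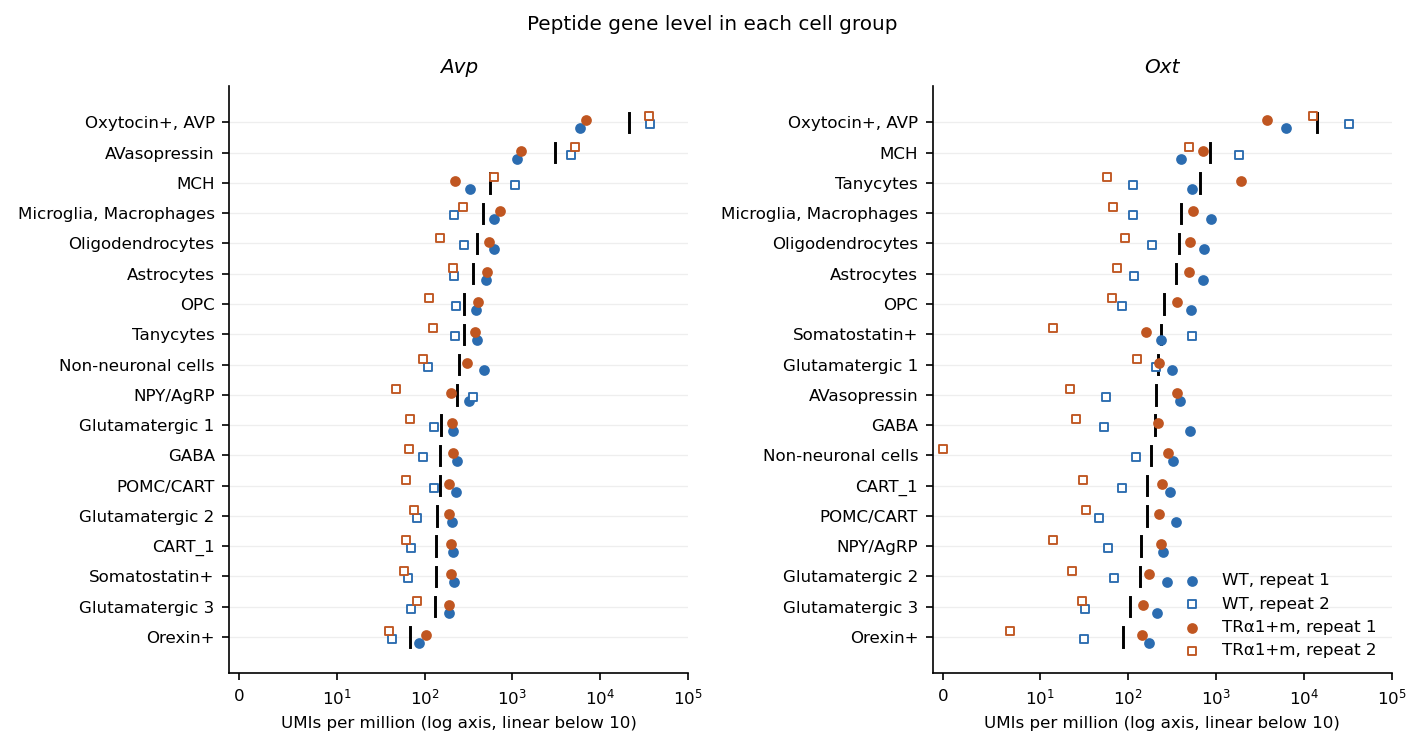
Avp (left) and Oxt (right) in 18 cell groups, in CPM on a log axis that is linear below 10. Each point is 1 library (blue WT, orange TRα1+m, filled circles repeat 1, open squares repeat 2) and the black bar is the mean of the 4 libraries; Oxytocin+, AVP is at the top of both panels, and the circles lie to the right of the squares in most other groups.

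Nucleus by nucleus, Avp and Oxt in Neurons_1 were made up of a few nuclei with very many UMIs and a large number with 1 or a few. A nucleus with 20 or more UMIs of a gene is called high for it below. Of 35756 nuclei of Neurons_1, 417 were Avp-high and 187 were Oxt-high. The Avp-high nuclei numbered 74 and 150 in the WT libraries (repeats 1 and 2) and 92 and 101 in the TRα1+m libraries, and the Oxt-high nuclei 55 and 50, and 57 and 25. The median depth of the Avp-high nuclei was 4271 to 5161 UMIs per library and that of the Oxt-high nuclei 4477 to 6643, beside 3797 to 5227 for the cluster.

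The 2 sets of nuclei were largely separate, though least so in TRα1+m repeat 2. Both genes were high in 20 nuclei, which is 4.8% of the Avp-high and 10.7% of the Oxt-high nuclei. By library these were 1 and 7 nuclei in WT and 2 and 10 in TRα1+m, so repeat 2 held 17 of them. They made up 1.8% and 14% of the Oxt-high nuclei in WT and 3.5% and 40% in TRα1+m (repeats 1 and 2). The median Avp-high nucleus had 0 or 1 Oxt UMI in every library, and the median Oxt-high nucleus had 1 Avp UMI. Only 6 of the 20 had 10 or more times as many UMIs of a hormone as of the other. The authors had removed nuclei with a high doublet score, and 5 of the 628 nuclei that were high for either gene in any cluster carried a barcode also found in another library.

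**Figure D2:**
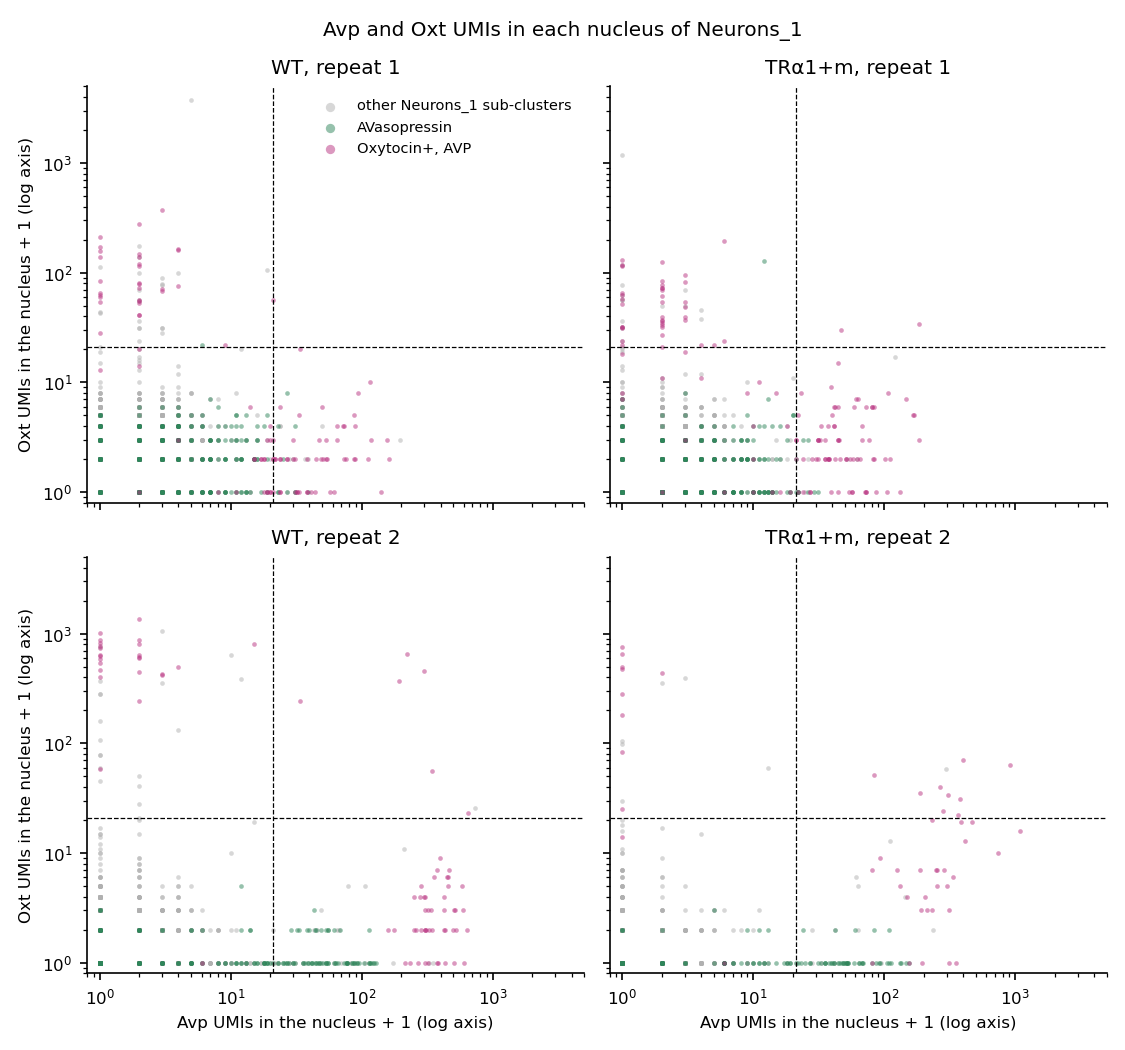
Avp against Oxt UMIs in each nucleus of Neurons_1, with 1 added and both axes on a log scale, in 1 panel per library. Dashed lines mark 20 UMIs; the upper right corner holds 1, 7, 2 and 10 nuclei in WT repeats 1 and 2 and TRα1+m repeats 1 and 2, and the clouds along the axes reach further out in repeat 2.

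How much of each hormone's RNA sat in high nuclei depended on the repeat. In Neurons_1 the high nuclei held 26.5% and 33.7% of Avp UMIs in the WT and TRα1+m libraries of repeat 1, and 86.5% and 88.4% in those of repeat 2. For Oxt the shares were 43.6% and 33.1% in repeat 1, and 89.3% and 82.1% in repeat 2. The median Avp-high nucleus held 34.5 and 42 UMIs in repeat 1 against 82 and 83 in repeat 2. For Oxt the medians were 70 and 49 UMIs in repeat 1, and 425 and 69 in repeat 2, so the WT library of repeat 2 stood apart. It held 20 nuclei with 500 or more Oxt UMIs, and the other libraries held 1 or 2 each.

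Where the high nuclei lay set the 2 hormones apart. Of the 445 Avp-high nuclei of all clusters, 221 (49.7%) were in the Oxytocin+, AVP sub-cluster and 142 (31.9%) in AVasopressin. Of the 205 Oxt-high nuclei, 119 (58%) were in Oxytocin+, AVP, 22 (10.7%) in Glutamatergic_1 and 2 in AVasopressin. Within Oxytocin+, AVP, Avp-high nuclei made up 51.4% and 67.5% of the WT and 57.5% and 77.1% of the TRα1+m nuclei, and Oxt-high nuclei 29% and 39%, and 29.9% and 37.5%. The sub-cluster was thus mostly a mixture of vasopressin and oxytocin nuclei, with more of the former in each library. Within AVasopressin, Avp-high nuclei were 2.58% and 2.74% of the nuclei in repeat 1, and 28.3% and 28.6% in repeat 2, so the call of an Avp-high nucleus there moved with the repeat and hardly with the genotype.

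The Avp-high nuclei of the 2 sub-clusters carried different marker genes, as described here without a test because the sub-clusters were built from all genes. Sim1, a transcription factor needed for magnocellular neurons, stood at 614 ± 45.6 CPM (mean ± SD, 4 libraries) in the Avp-high nuclei of Oxytocin+, AVP. In those of AVasopressin it had 3, 1, 0 and 1 UMIs (WT repeats 1 and 2, then TRα1+m repeats 1 and 2). Pou3f2, which acts with Sim1, stood at 137 ± 12.7 CPM in the former and had 0, 2, 0 and 0 UMIs in the latter. The reverse held for genes of the suprachiasmatic nucleus. Vipr2, the receptor through which the pacemaker's neurons read VIP, stood at 251 ± 8.33 CPM in the Avp-high nuclei of AVasopressin and had 0, 0, 0 and 1 UMIs in those of Oxytocin+, AVP. The nuclear receptor gene Rorb stood at 4181 ± 1636 against 90.7 ± 49.2 CPM, and Prok2, an output signal of the pacemaker, at 145 ± 58.5 against 5.23 ± 5.58 CPM.

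Summed over the 10 suprachiasmatic genes of the marker list, the level was 5086 to 8073 CPM per library in the Avp-high nuclei of AVasopressin and 152 to 323 CPM in those of Oxytocin+, AVP, where Nms had no UMI. Summed over the 5 magnocellular genes it was 162 to 216 against 984 to 1068 CPM. GABA neurons stood at 842 to 1187 and 136 to 144 CPM for the 2 lists. Markers of oligodendrocytes summed to 206 to 585 and 149 to 192 CPM in the 2 kinds of Avp-high nuclei, beside 7030 to 19788 CPM in oligodendrocytes. The pituitary genes Prl and Gh had no UMI in either. The 3 tanycyte genes of the list (Nnat, Rax and Col23a1) summed to 2463 to 3804 CPM in the Avp-high nuclei of AVasopressin. They summed to 1918 to 2917 CPM in the astrocyte cluster, which includes 1489 tanycytes. The astrocyte genes summed to 206 to 303 CPM against 4879 to 7839. In Avp-high nuclei of Neurons_1 that were not Oxt-high, the tanycyte list summed to 549 to 1773 CPM. There Nnat alone stood at 527 to 1813 CPM and Col23a1 at 12.2 to 22.5 (CPM without Avp and Oxt). Creb3l1, a transcription factor known to act on the Avp promoter, stood at 54.3 ± 15.5 CPM in the Avp-high nuclei of AVasopressin and at 8.06 ± 6.78 in those of Oxytocin+, AVP. Caprin2, which binds vasopressin mRNA and lengthens its tail, went the other way, at 24.3 ± 6.45 and 559 ± 98.3 CPM. The Avp-high nuclei of AVasopressin numbered 10 and 72 in WT and 10 and 50 in TRα1+m (repeats 1 and 2). Low levels in them, such as those of Creb3l1 and Caprin2, therefore rest on few UMIs in repeat 1. These contrasts were not tested.

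AVasopressin nuclei that were not high for either hormone also carried suprachiasmatic genes. These summed to 5364, 4727, 5245 and 4402 CPM (WT repeats 1 and 2, then TRα1+m repeats 1 and 2). The Avp-high nuclei of that sub-cluster were higher in each library, at 7401, 5086, 8073 and 5330 CPM. The list of regulators of the hormone genes and their RNAs, which also holds Rorb, went the same way. It summed to 5114, 2947, 6277 and 3018 CPM in the Avp-high and to 2817, 1394, 2828 and 1514 in the other nuclei. The suprachiasmatic genes without Rorb were not summed, so the higher sum is not shown for them. In repeat 1 it rests on 10 Avp-high nuclei per library. Vip, the peptide of another set of pacemaker neurons, stood at 146, 1091, 117 and 500 CPM in the nuclei high for neither hormone (libraries in the same order). In the Avp-high nuclei Vip had 0, 1, 0 and 9 UMIs. The sub-cluster named for vasopressin therefore carried Vip RNA as well, though Vip was not counted nucleus by nucleus. Of its nuclei, 12% were Avp-high.

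**Figure D3:**
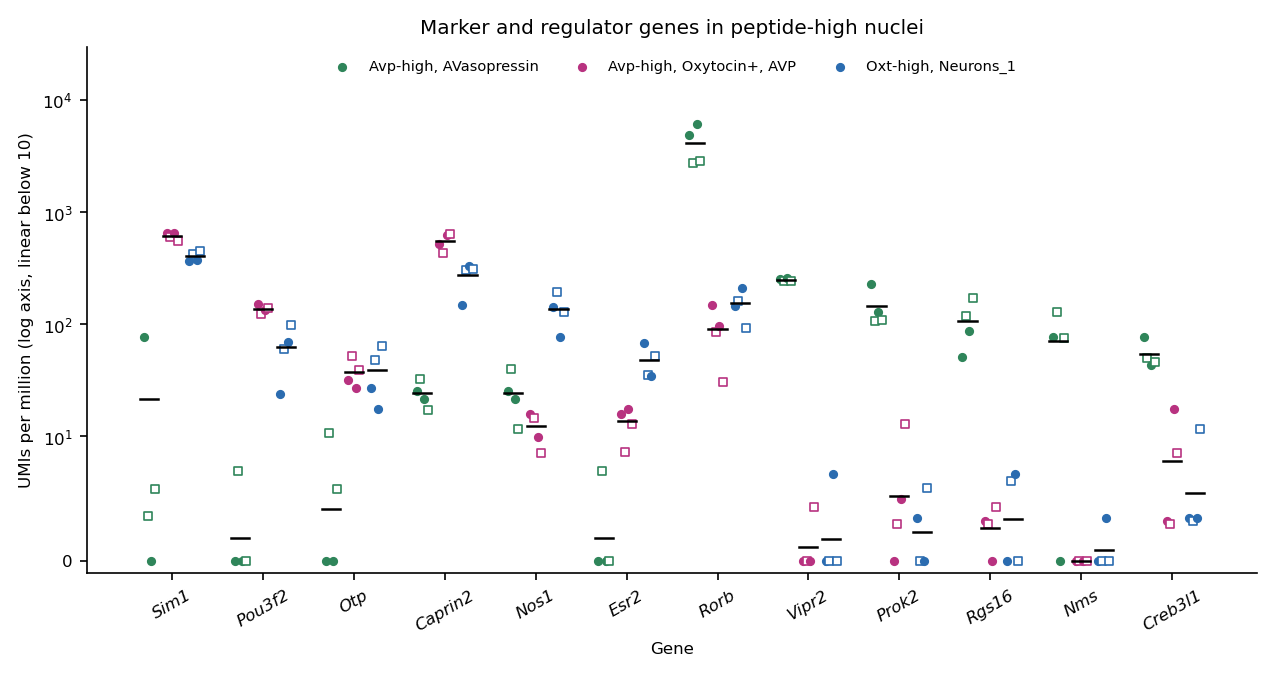
Marker and regulator genes in 3 sets of hormone-high nuclei (green Avp-high of AVasopressin, magenta Avp-high of Oxytocin+, AVP, blue Oxt-high of Neurons_1), in CPM on a log axis that is linear below 10. Each point is 1 library (filled circles repeat 1, open squares repeat 2, both genotypes) and the bar is the mean of 4; Sim1 is high in magenta and blue, and Rorb and Vipr2 in green.

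Which genes go with oxytocin rather than vasopressin was asked by comparing Oxt-high nuclei with Avp-high nuclei that were not Oxt-high, both from Neurons_1. Counts were summed per library and class (25 to 57 against 73 to 143 nuclei), Avp and Oxt were left out, and the library was a block in edgeR's quasi-likelihood test with Benjamini-Hochberg adjustment. Of 7332 genes that passed the filter on low counts, 135 (1.84%) were higher in Oxt-high and 86 (1.17%) higher in Avp-only nuclei. Levels in this comparison are CPM without Avp and Oxt.

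Genes higher in Oxt-high nuclei included Nos1, which makes the transmitter nitric oxide. It stood at 148, 212, 77.9 and 136 CPM in Oxt-high nuclei (WT repeats 1 and 2, then TRα1+m repeats 1 and 2) and at 15, 24.9, 10.7 and 17.1 in Avp-only nuclei, with no overlap. Its log2 fold change was 3.04 ± 0.22 (SE, edgeR adjusted p = 2.67e-06). Galnt14, an enzyme that starts O-linked glycans, rose from 10.4 ± 2.79 to 183 ± 111 CPM (mean ± SD, 4 libraries, log2 4.11). Gpc5, a cell surface glypican, rose from 250.3 ± 91.8 to 3141 ± 1470 CPM (log2 3.55). These SDs span both genotypes. In Oxt-high nuclei Galnt14 stood at 309 and 240 CPM in WT and at 70.8 and 111 in TRα1+m. Gpc5 stood there at 2059 and 1739 CPM in WT and at 4748 and 4017 in TRα1+m. The genotypes did not overlap for either gene, which was not tested. The other genes with the largest changes in this direction, each higher in all 4 libraries, were Mdfic (log2 4.61), Gm20713 (3.71), A830018L16Rik (3.48), Stxbp2 (3.22), Gm50423 (3.04), Myh14 (3.01) and Fbn2 (2.92). Esr2, the estrogen receptor β, was higher by log2 2.15, and Pam, which amidates the end of both hormones, by log2 0.60.

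Genes higher in Avp-only nuclei were led by Chodl (log2 −4.79), Crb1 (−4.75) and Vipr2 (−4.72), and went on with Sh2d4b (−4.54), Gm47710 (−4.13), Prok2 (−4.02), Cecr2 (−3.51), 9330185C12Rik (−3.48), Gm15261 (−3.24) and Sema3e (−3.04). Their fold changes rest in part on Oxt-high libraries at 0, so they depend on the prior count. Vipr2, for one, stood at 25, 101, 25.8 and 110 CPM in Avp-only nuclei and at 0, 0, 7.08 and 0 in Oxt-high nuclei. Of the 8 suprachiasmatic markers that could be tested, 5 were higher in Avp-only and none in Oxt-high nuclei (median log2 −2.74, beside −0.0024 over all genes), namely Vipr2, Prok2, Rgs16, Rorb and Nms, of which Nms was higher in 3 of 4 libraries and the others in 4 of 4. None of the 4 testable magnocellular markers passed in either direction (median log2 0.10).

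Within the Oxytocin+, AVP sub-cluster alone, a restriction chosen after the data were seen, 2 of the suprachiasmatic genes could be tested and neither passed (median log2 0.89), and of 4 magnocellular genes 1, Pou3f2, was higher in Avp-only nuclei. Of the 221 genes, 160 (72.4%) passed there as well, where 391 of 5026 tested genes passed. How many of the 221 could be tested there was not counted. Of the 20 genes named above for the largest changes, 9 could be tested there, and 9 passed in the same direction. Gm47710 was the only gene among them that was higher in Avp-only nuclei. The other leading genes of the Avp-only side, Chodl, Crb1 and Vipr2 included, could not be tested within this sub-cluster. Nos1 remained higher with oxytocin (log2 4.30) and so did Pam (log2 0.83), while Pcsk2 remained higher with vasopressin (log2 −1.23). In that sub-cluster Pdyn, the precursor of dynorphin, a known partner of vasopressin, was higher in the Avp-only nuclei by log2 1.69, coded as −1.69 for oxytocin against vasopressin (edgeR adjusted p = 0.0083). Caprin2 (−0.65) and Pou3f2 (−1.15) went the same way.

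Among the genes of hormone processing and secretion, all 12 of the list could be tested over Neurons_1. Pam was higher in Oxt-high nuclei, and Pcsk2 (log2 −1.18), Scg2 (−1.34) and Vgf (−1.52) were higher in Avp-only nuclei. Pcsk2 cuts prohormones, and Scg2 and Vgf are granule proteins. Within Oxytocin+, AVP alone Scg2 (−0.86) still passed, while Vgf did not (log2 −0.14, edgeR adjusted p = 0.917). Pcsk2 stood at 309, 240.0, 262 and 105 CPM in Oxt-high and at 542, 582, 438 and 490.0 in Avp-only nuclei, with no overlap. Of 9 testable co-transmitter genes Nos1 passed, of 7 genes of receptor signalling Prkca passed (−0.94), and of 5 regulators of the hormone genes and their RNAs Esr2 and Rorb passed, in opposite directions. Within Oxytocin+, AVP alone Rorb did not pass and had the other sign (log2 0.52, edgeR adjusted p = 0.241). The list of developmental factors holds the same 5 genes as the magnocellular markers above.

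Outside the high nuclei, both hormones were present at a low level in every cell group. At least 1 Avp UMI was seen in 59.5%, 30.5%, 55.5% and 20.7% of Neurons_1 nuclei (WT repeats 1 and 2, then TRα1+m repeats 1 and 2). The shares in oligodendrocytes were 57.3%, 26.5%, 56.2% and 19%, at median depths of 1493 to 1812 UMIs against 3797 to 5227 in Neurons_1. For Oxt the shares were 64.4%, 22%, 51.8% and 9.53% in Neurons_1 and 65%, 18.3%, 50.7% and 8% in oligodendrocytes. The shares in neurons lay near those in glia in every library although neurons were deeper. A share of nuclei with a UMI is therefore not taken here as a measure of expression. The source of these UMIs was not tested.

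The low level had its own composition in each library. In nuclei under 20 UMIs of both genes, summed over 6 non-neuronal groups, the ratio of Avp to Oxt UMIs was 0.798 in WT repeat 1, 1.5 in WT repeat 2, 1.03 in TRα1+m repeat 1 and 2.35 in TRα1+m repeat 2. Summed over 10 neuronal sub-clusters other than the pair named for the hormones it was 0.832, 1.43, 1.03 and 2.02. The ratio was thus near the same in neurons and glia of a library, and it was higher in the TRα1+m library of each repeat. The mean level was also near the same, at 0.94 Avp UMIs per non-neuronal and 0.952 per neuronal nucleus in WT repeat 1 and at 0.27 and 0.256 in TRα1+m repeat 2. The ratio was higher in AVasopressin, at 2.48, 11.6, 4.12 and 33.7 in its nuclei under 20 UMIs, where the last value rests on 9 Oxt UMIs. In Oxytocin+, AVP it was 4.33 and 1.36 in the WT and TRα1+m libraries of repeat 1, and repeat 2 had 1 and 2 such nuclei.

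**Figure D4:**
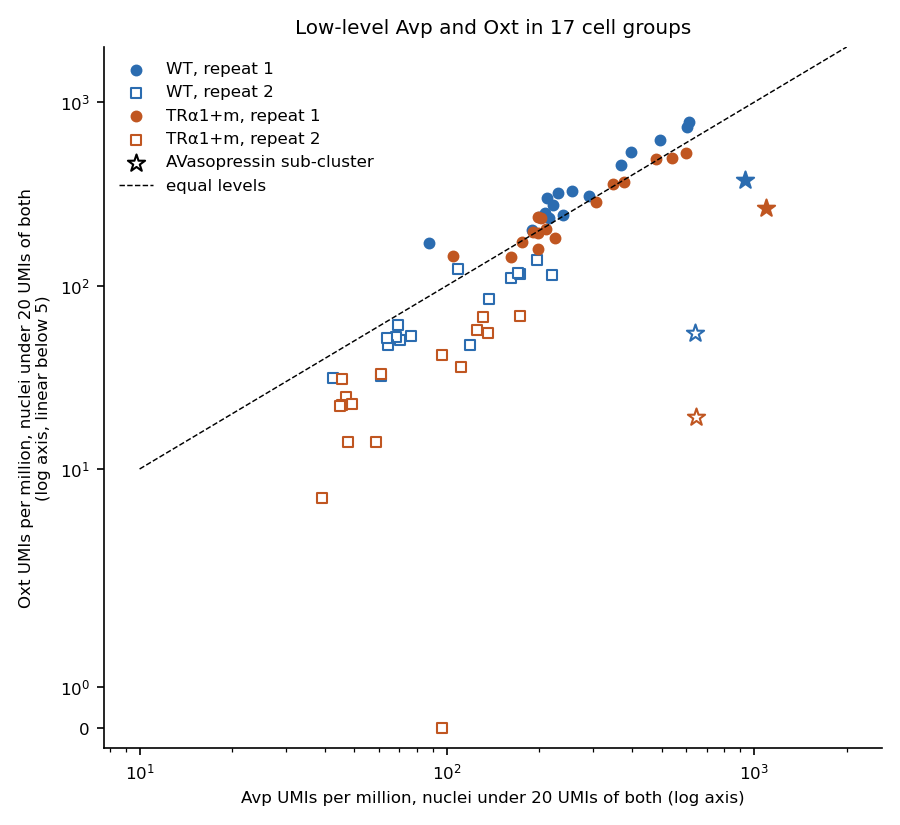
Avp against Oxt in nuclei under 20 UMIs of both genes, summed per cell group and library, in CPM (log axes, the vertical one linear below 5). Points are 17 groups with AVasopressin as stars, Oxytocin+, AVP is left out, and the dashed line marks equal levels; repeat 1 libraries (filled) lie at higher levels than repeat 2 (open), and TRα1+m (orange) lies below WT (blue) of the same repeat.

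The receptors were far scarcer. Avpr1a had 64, 161, 56 and 104 UMIs in whole libraries and Oxtr 77, 132, 92 and 99 (WT repeats 1 and 2, then TRα1+m repeats 1 and 2). Avpr1a was found in 362 and Oxtr in 382 of the 56386 nuclei. Of the other vasopressin receptors, Avpr1b, the receptor of pituitary corticotrophs, had 2, 0, 0 and 0 UMIs and Avpr2, that of the kidney, 1, 1, 3 and 2.

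Avpr1a was highest in the AVasopressin sub-cluster in all 4 libraries, at 5.44 and 16 CPM in WT and 4.39 and 18.7 CPM in TRα1+m (7, 16, 5 and 12 UMIs). Glutamatergic_3 came next in mean level at 1.53, 7.15, 2.82 and 4.13 CPM, with ranks 7, 2, 2 and 3. It was below AVasopressin in each library, and above the group after it by mean, Glutamatergic_1, in each. Further down, no group stood above its next neighbour in all 4 libraries. Oxytocin+, AVP, the other Avp-rich group, had 2 Avpr1a UMIs in all. Oligodendrocytes stood at 1.13 ± 1.10 CPM (SD, 4 libraries), with 1.93 and 2.21 in WT and 0 and 0.40 in TRα1+m.

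Oxtr was spread more evenly. By mean level Glutamatergic_3 led with 1.97, 5.63, 3.29 and 3.86 CPM (ranks 4, 2, 1 and 3). POMC/CART followed with 2.77, 4.01, 1.44 and 5.07 CPM and Glutamatergic_2 with 1.79, 3.18, 2.07 and 4.99 CPM. These first 3 groups overlapped and exchanged ranks between libraries. Tanycytes were at rank 1 in both WT libraries (3.22 and 5.91 CPM) and at rank 13 in both TRα1+m libraries (1.00 and 0 CPM), on 10 UMIs in all. No Oxtr UMI was found in Oxytocin+, AVP in any library, which allows up to 1.47 CPM over the 4 libraries together (3 counts of their total, counting error only). Over the same 4 libraries together Glutamatergic_3 stood at 3.69, POMC/CART at 3.48 and Glutamatergic_2 at 3.14 CPM, all above that limit. Tanycytes (2.83) and microglia and macrophages (2.43) were above it too. Other groups lay near or under it, among them GABA neurons (1.54), AVasopressin (1.48), oligodendrocytes (1.33) and CART_1 (0.41). The cluster named Non-neuronal cells also had no Oxtr UMI. The missing Oxtr thus does not set Oxytocin+, AVP apart from these lower groups.

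**Figure D5:**
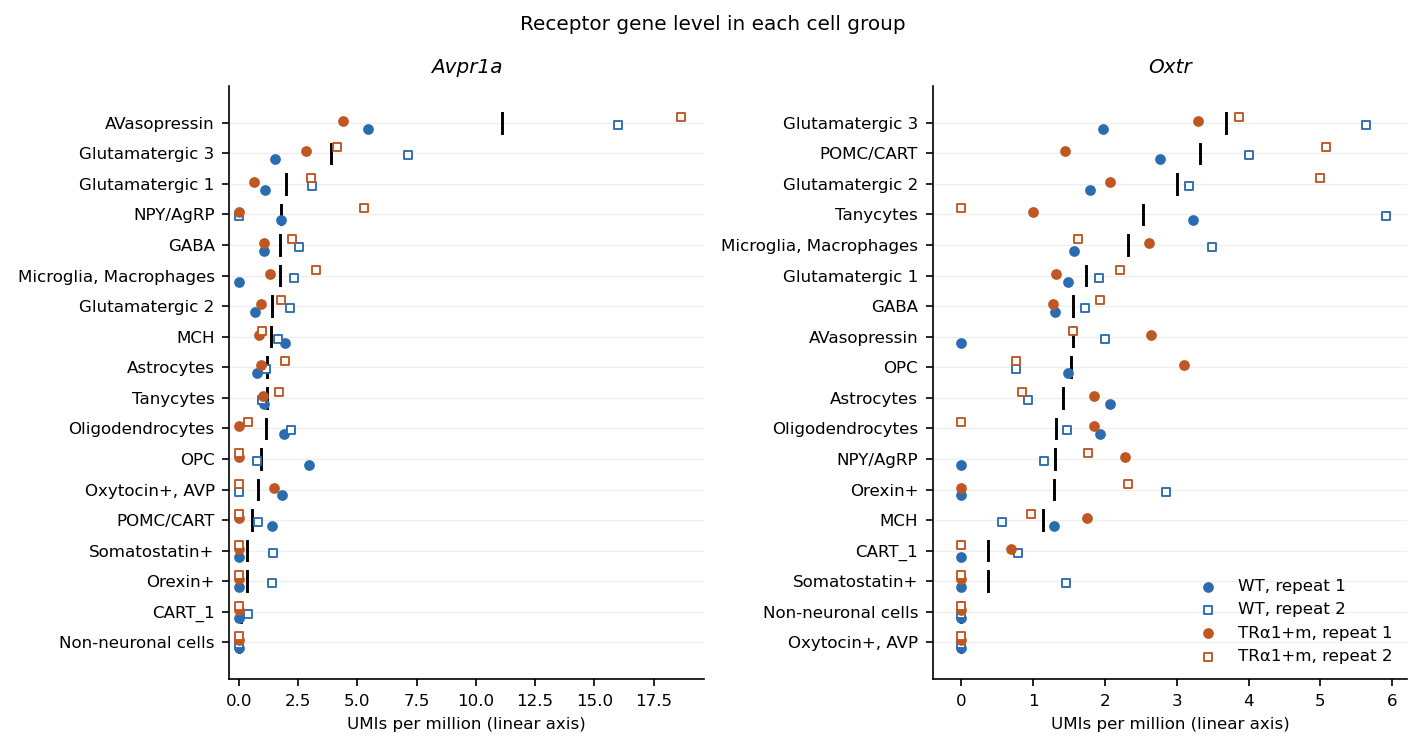
Avpr1a (left) and Oxtr (right) in 18 cell groups, in CPM on linear axes that differ between the panels. Each point is 1 library (blue WT, orange TRα1+m, filled circles repeat 1, open squares repeat 2) and the black bar is the mean of the 4; AVasopressin leads for Avpr1a with 11.1 CPM, while the leading groups for Oxtr overlap.

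The genes whose levels over the 18 groups were most like each member were named by Pearson's r of mean log2(CPM + 1) among 16713 genes, as a description that carries no test, since the groups share libraries. For Avp they were Mrps26 (r = 0.83), Oxt (0.81), Ptbp3 (0.80), Fam162a (0.76) and Clcn5 (0.76), and for Oxt they were Mrps26 (0.90), Pla2r1 (0.88), Clcn5 (0.84), Chml (0.83) and Icam2 (0.82). Mrps26, a mitochondrial ribosome gene, is the next gene upstream of Oxt on the same strand, at chr2:130563742-130568695, with 7477 bases between them. It did not differ between Oxt-high and Avp-only nuclei (log2 0.24 ± 0.21 SE, edgeR adjusted p = 0.754). For Avpr1a the nearest were Chrna3 (0.93), a nicotinic receptor subunit, Grp (0.89), a peptide of the suprachiasmatic nucleus, 3100003L05Rik (0.85), Gm30094 (0.85) and Npbwr1 (0.84). For Oxtr they were C130013H08Rik (0.88), B830017H08Rik (0.83), Abcb6 (0.83), Faap100 (0.82) and Wnt4 (0.80). Avpr1a and Avp themselves had r = 0.32 and Oxtr and Oxt r = −0.32. For Avp and Oxt most groups enter these values with the low level found in every cell group. For the receptors several groups enter with few UMIs.

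Whether the TRα1 mutation went with other levels of the 4 genes was asked with edgeR's quasi-likelihood test on summed counts, fitted across all genes of each group. Oxt in Neurons_1 stood at 461 and 506 CPM in the WT libraries and at 292 and 165 in the TRα1+m libraries. The TRα1+m libraries were the lower ones and the genotypes did not overlap. The log2 fold change was −1.14 ± 0.29 (SE), with an unadjusted p of 0.0119 and an edgeR adjusted p of 1.00. The difference therefore did not pass the test over all genes. In WT repeat 1 a single nucleus held 3747 Oxt UMIs, 19.2% of the cluster's total. Without the top nucleus of each library, Oxt stood at 373 and 477 CPM in WT and at 265 and 144 in TRα1+m. These levels include the low level found in every cell group. In nuclei under 20 Oxt UMIs it was 262 and 54.5 CPM in WT and 197 and 29.8 in TRα1+m. Avp in Neurons_1 stood at 326 and 618 CPM in WT and 330.5 and 488 in TRα1+m, with overlap (log2 −0.27 ± 0.34, edgeR adjusted p = 1.00).

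In no group did a member pass this test. The study itself reported Oxt as lower in TRα1+m in a neuronal sub-cluster. It used a rank sum test with nuclei, not libraries, as the unit. In the 6 main clusters 14 of 24 pairs of a member and a cluster passed the filter on low counts and 0 were called, where 0.0192% of all gene-by-cluster tests were called. In the 14 sub-clusters, 2 of astrocytes and 12 of neurons, 36 of 56 pairs passed the filter and 0 were called, beside 0.0031% of all tests. DESeq2 also called 0 at both levels. At an unadjusted p under 0.05 there was 1 pair among the main clusters and 0 among the sub-clusters. Avp and Oxt passed the filter in every group.

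The repeats were run as pairs, and a fit with the repeat as a block changed the calls. With it 2 pairs were called in main clusters, where 1.23% of all tests were called, and 7 in sub-clusters, where 0.54% were. In each of the 9 pairs the member was lower in TRα1+m. Oxt was called in oligodendrocytes, OPC, astrocytes, GABA neurons, Glutamatergic_1 and Oxytocin+, AVP, and Avp in GABA neurons, MCH and POMC/CART. In Neurons_1 as a whole 0.01% of genes were called with the block and no member was (Oxt, log2 −1.2, edgeR adjusted p = 0.658). This fit leaves 1 residual degree of freedom per gene and borrows the rest of its spread from other genes.

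In the Oxytocin+, AVP sub-cluster, whose levels per library are given above, Oxt fell by 1.11 ± 0.15 on the log2 scale with the block (edgeR adjusted p = 0.0095, where 0.292% of genes were called). The ratio of TRα1+m to WT was 0.606 in repeat 1 and 0.385 in repeat 2. The fit without the block gave −1.31 ± 1.35 (edgeR adjusted p = 1.00). A setting added after the data were seen left out the nucleus richest in Avp and that richest in Oxt of each library. With it the block gave −1.18 ± 0.12 (edgeR adjusted p = 1.77e-20, where 1.11% of genes were called). With only the nucleus richest in Oxt left out, Oxt stood at 5628 and 30873 CPM in WT and at 3521 and 10644 in TRα1+m. The SE and p of the blocked fits, here and below, lean on the spread of other genes. They do not measure how closely the repeats agreed on the size of the change. Avp in the same sub-cluster did not pass with the block (log2 0.054 ± 0.11, edgeR adjusted p = 0.964), and its ratio was 1.18 in repeat 1 and 0.989 in repeat 2. For Oxt, leaving out all hormone-high nuclei left 44 nuclei, 1 of them in WT repeat 2, and the fit without the block then gave 1.05 in place of −1.31. The share of the sub-cluster's nuclei that were Oxt-high, given above, was 29% and 29.9% in the WT and TRα1+m libraries of repeat 1 and 39% and 37.5% in those of repeat 2, so it differed far less than the Oxt level did.

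In GABA neurons the call of Oxt was lost without the nuclei richest in Avp and Oxt of each library. Oxt stood at 511 and 53.3 CPM in WT and 222 and 25.4 CPM in TRα1+m, and with the block it fell by 1.2 ± 0.07 on the log2 scale (edgeR adjusted p = 1.94e-17, where 0.684% of genes were called). A nucleus of WT repeat 1 with 3747 Oxt UMIs, 44.6% of its own UMIs, held 41.8% of the Oxt UMIs of that library's GABA neurons. Without the richest nuclei of every library, of which this is 1, the blocked change was −0.79 ± 0.20 and did not pass (edgeR adjusted p = 0.510).

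Oxt was lower in TRα1+m also in glia, where Oxt-high nuclei were few. In oligodendrocytes, which held 0, 2, 2 and 2 of them (WT repeats 1 and 2, then TRα1+m repeats 1 and 2), it fell from the levels given above by 0.68 ± 0.16 on the log2 scale with the block (edgeR adjusted p = 0.0029, where 4.35% of genes were called). The genotypes overlapped there, since repeat 1 was above repeat 2 in both. Over the 18 groups the Oxt level was lower in TRα1+m in both repeats in 16 and split in 2, tanycytes and MCH. Without the top nucleus of each group and library it was lower in both repeats in 18 of 18. The groups of a library share the low level described above, so these are not 18 separate measurements. For Avp 11 of 18 groups were lower in both repeats, 3 higher in both and 4 split. Leaving out the top nucleus of each group and library made these counts 13, 2 and 3. Without the top nuclei the block called 3 pairs in main clusters (1.28% of all tests called) and 8 in sub-clusters (0.453%), of which 9 were Oxt and 2 Avp, and in each of these the member was lower in TRα1+m. The 2 main-cluster calls were kept, but of the 7 sub-cluster calls 3 were kept (Oxt in astrocytes and in Oxytocin+, AVP, and Avp in MCH), 4 were lost and 5 others were gained. Lost were Oxt and Avp in GABA neurons, Oxt in Glutamatergic_1 and Avp in POMC/CART.

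The share of Neurons_1 nuclei that were high for a hormone was compared as well. Avp-high nuclei made up 0.774% (95% exact binomial interval 0.61 to 0.97) and 1.71% (1.45 to 2.01) in WT and 0.866% (0.70 to 1.06) and 1.48% (1.21 to 1.80) in TRα1+m. Oxt-high nuclei made up 0.575% (0.43 to 0.75) and 0.571% (0.42 to 0.75) in WT and 0.537% (0.41 to 0.69) and 0.366% (0.24 to 0.54) in TRα1+m. The difference, TRα1+m minus WT, was −0.071 percentage points for Avp (two-sided exact permutation p = 1.00) and −0.122 for Oxt (p = 0.333, exact). With 2 libraries against 2 the smallest p this test can give is 0.333. At a threshold of 50 UMIs the Oxt-high shares were 0.418% and 0.491% in WT against 0.254% and 0.249% in TRα1+m, again without overlap. With a threshold set per library from oligodendrocytes the genotypes overlapped, at 0.753% and 0.560% in WT against 0.593% and 0.337% (p = 0.667, exact permutation). They overlapped too after thinning nuclei to 2000 UMIs with a threshold of 10 UMIs, at 0.627% and 0.504% against 0.522% and 0.294% (p = 0.667, exact permutation). Nuclei under 2000 UMIs, 354 to 663 per library, were left out of that setting. Without thinning, a threshold of 10 UMIs gave 0.721% and 0.686% in WT against 0.669% and 0.557% in TRα1+m, without overlap.

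In Neurons_1 the receptors did not differ between genotypes beyond the spread. Avpr1a in Neurons_1 stood at 1.21 and 3.00 CPM in WT and 1.12 and 2.58 in TRα1+m (log2 −0.26 ± 0.60), and Oxtr at 1.37 and 2.34 against 1.59 and 2.56 (log2 0.09 ± 0.40), each with an edgeR adjusted p of 1.00. Avpr1a in AVasopressin changed by −0.05 ± 0.74. For both receptors the repeat 2 library of a genotype had the greater level in Neurons_1. In many other groups a receptor did not pass the filter on low counts. Oligodendrocytes, for 1, had 5 and 6 Avpr1a UMIs in WT and 0 and 1 in TRα1+m. Tanycytes had 3 and 6 Oxtr UMIs in WT and 1 and 0 in TRα1+m. NPY/AgRP went the other way for Oxtr, at 0 and 1.15 CPM in WT and 2.27 and 1.76 in TRα1+m. These pairs could not be tested with the filter.

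Of the 46 pathway genes, 44 could be tested between genotypes in Neurons_1 and 0 were called by edgeR with or without the block; 0 had an unadjusted p under 0.05, and DESeq2 called 0. Of all 19926 genes tested there, 0 were called without and 2 with the block, and 193 had an unadjusted p under 0.05, so the count for the pathway lies near that of all genes. All 10 genes of receptor signalling were tested (median log2 −0.10), all 12 of hormone processing (−0.08), all 6 regulators (0.04), all 5 developmental factors (−0.09) and all 11 co-transmitters (−0.07), where the median over all genes was 0.01. Calb2 had the smallest unadjusted p (0.0934, log2 −0.39 ± 0.19, edgeR), and Pcsk2 changed by −0.32 ± 0.16.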

How the data were processed

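The authors deposited raw UMI counts per gene and nucleus, made with Cell Ranger 5.0.1 on mm10-2020-A with intronic reads counted, and an annotation of 56386 nuclei. They had filtered nuclei on UMIs, genes, mitochondrial reads and a doublet score. The series' design text gives each library as a pool of 3 mice. Antisense or overlapping reads at Avp and Oxt were not separated here, and the depth sets a limit on the receptors.

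Here counts were summed per library and cell group and tested with edgeR 4.0.16 (TMM, filterByExpr, quasi-likelihood, Benjamini-Hochberg at 0.05). The annotation's clusters were used as given. Alternatives were DESeq2 1.42.0, RLE factors, no filter, a replicate block, other thresholds and left-out libraries or nuclei. The code was tested on simulated data. The repeat number marks an experiment shared by both genotypes in the study's methods, and deviations of same-numbered libraries correlated over 16197 genes of Neurons_1 (r = 0.79).

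Members, lists and rules were chosen with earlier results of these data known. Named genes were the members, list genes past the test and the 10 largest changes each way, past the threshold and alike in all 4 libraries. P-values measure the spread between pools, which edgeR borrows in part from other genes, and most in the blocked fits. Binomial intervals cover counting error only. Sequences are from GENCODE vM21 and RefSeq.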

Additional observations from a re-analysis of the deposited data

Results flagged for a closer look

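Barcodes that the authors' annotation leaves out, 11804 in all, also held hormone-rich entries. Among them 136 had 20 or more Avp UMIs and 123 had 20 or more Oxt UMIs. The Avp-high share of these barcodes was 0.431% and 2.13% in WT repeats 1 and 2 and 0.337% and 1.86% in TRα1+m, beside 0.532% and 1.19%, and 0.59% and 0.927%, of annotated nuclei. The Oxt-high share was 0.646% and 1.66% in WT and 0.674% and 1.24% in TRα1+m, beside 0.416% and 0.398%, and 0.371% and 0.251%, of annotated nuclei. The median depth of the left-out Oxt-high barcodes was 3334 UMIs in WT and 2139 in TRα1+m in repeat 1, and 891.5 and 695 in repeat 2.

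The difference between genotypes in Avp had opposite signs in different groups, which was not tested. In AVasopressin the ratio of TRα1+m to WT was 1.11 in both repeats. In GABA neurons it was 0.885 and 0.691, and in oligodendrocytes 0.883 and 0.532. Ratios above 1 in both repeats were also seen in microglia and macrophages (1.18 and 1.26) and in Glutamatergic_3 (1.00 and 1.15). Without the top nucleus of each library, Glutamatergic_3 stood at 186 and 61.2 CPM in WT and at 162 and 56.0 in TRα1+m. It was then lower in TRα1+m in both repeats. Microglia and macrophages stayed higher, at 607 and 201 CPM in WT and 653 and 207 in TRα1+m.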

How the results depend on the processing

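Member calls between genotypes (0 in main clusters and 0 in sub-clusters) became 2 and 7 with the replicate block, and 3 and 8 with the block and without the nuclei richest in Avp and Oxt (chosen after seeing the data); no filter gave 1 in sub-clusters. Leaving out 1 library gave 0 to 1 and 0 to 3 calls, the highest without TRα1+m repeat 1. The block changed no call among the pathway genes. The Avp-high share difference became 0.640 percentage points with a threshold set per library from oligodendrocytes. That threshold was 10 and 68 Avp UMIs in WT repeats 1 and 2 and 6 and 9 in TRα1+m. The libraries were thus counted at unlike cut-offs, with WT repeat 2 at the highest. At 20 UMIs the difference ranged from −0.541 without WT repeat 1 to 0.399 without WT repeat 2. The 221 genes between Oxt-high and Avp-only nuclei became 110 with DESeq2, 419 with no filter, 134 with equal numbers of nuclei, 391 within Oxytocin+, AVP (chosen after seeing the data), and 118 (without WT repeat 2) to 223 without 1 library. Of 120 values for 11 genotype changes 91 kept direction and call, 6 gained a call and 23 turned sign; of 187 values for 20 named class genes 162 kept both and 25 lost the call. Log2 changes that turned sign without 1 library ranged, for Avp, from −0.65 to 0.24 in Neurons_1, −1.68 to 1.82 in Oxytocin+, AVP, −1.20 to 1.43 in AVasopressin and −1.42 to 0.50 in GABA neurons. For Oxt they ranged from −2.27 to 0.79 in oligodendrocytes, −2.44 to 0.36 in Oxytocin+, AVP and −3.57 to 1.19 in GABA neurons, for Avpr1a from −0.95 to 0.52 in Neurons_1 and −1.21 to 0.83 in AVasopressin, and for Oxtr from −0.27 to 0.50 in Neurons_1. Leaving out a library leaves a genotype with 1, assumed to vary like the others, and unbalances the repeats. With the block, Avp in Oxytocin+, AVP was 0.054, and 0.020 without the richest nuclei. Oxt there was 1.05 without the high nuclei and without the block. Avpr1a in AVasopressin was 0.029 with DESeq2, 0.034 with the block and 0.042 with the block without the richest nuclei. The cause of these shifts was not tested. Depth limits the receptors, with 385 and 400 UMIs in all.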

Other observations

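Hormone-high nuclei were rare but present in clusters other than Neurons_1. In the non-neuronal clusters 42 nuclei held 20 or more UMIs of Avp or Oxt, at a median depth of 2100.5 UMIs. Their astrocyte markers summed to 3725 to 5193 CPM per library, beside 4879 to 7839 in astrocytes. Markers of oligodendrocytes summed to 868 to 4959 CPM and those of microglia and macrophages to 86.5 to 730, so the cell types were mixed. The richest of these nuclei was the tanycyte of TRα1+m repeat 1, of whose UMIs 38.1% were Oxt. In the sub-cluster named MCH, 15 nuclei were Oxt-high and 14 Avp-high, at median depths of 1565 and 1567 UMIs; the richest Oxt nuclei there held 1181 UMIs in TRα1+m repeat 1 (52.9% of the nucleus) and 1059 in WT repeat 2 (44.8%). Glutamatergic_1 held Oxt-high nuclei in every library (8 and 5 in WT, 6 and 3 in TRα1+m), at a median depth of 4719 UMIs.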
